A study of Mus musculus with 24 samples.

Results

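The comparison described here set polyribosomal RNA against total RNA of the same cortical lysates in mice that lack Fmr1. It used the 6 Fmr1 KO polyribosomal arrays and the 6 Fmr1 KO total RNA arrays, 12 of the 24 arrays of the series, which the labels name by genotype, RNA source and biological replicate number. Fmr1 encodes FMRP, the RNA-binding protein lost in fragile X syndrome. The mice were FVB males at postnatal day 7, and their cerebral cortex was freed of white matter; the other 12 arrays held the same kinds of RNA from WT littermates. Each lysate pooled 2 mice, was made in cycloheximide, which holds ribosomes on their mRNAs, and was cleared by centrifugation. Before the gradient, 20% of the cleared lysate was kept as total RNA. The rest was run through sucrose of 20% to 50%, and the polyribosomal RNA was that of fractions 10 to 13 of 16, with RNA on 6 or more ribosomes. The Fmr1 allele was not given in the sources used here.

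An mRNA that is being translated carries several ribosomes at a time and travels far into a sucrose gradient. RNAs that are not translated stay near the top, and so do mRNAs whose reading frame is too short for many ribosomes. RNAs in large particles other than ribosomes can also sediment deep. A lower value in polyribosomal RNA therefore says only that less of an RNA's signal was in these heavy fractions. It does not say that the mRNA carried no ribosomes. FMRP itself is found mostly on polyribosomes in brain and is known as a repressor of translation.

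Levels are log2 values from Affymetrix GeneChip arrays of the mouse genome. A difference is the mean over 6 lysates of polyribosomal minus total RNA, so a difference of 1 stands for a 2-fold change in the deposited values. The arrays were normalized to nearly equal medians (3.17 to 3.19), and every difference is relative to the other RNAs on the arrays. Of 45037 probe sets, 17854 reached a log2 level of 4 in 6 or more of the 12 arrays and were tested with limma, with the lysate as a block. Where a gene had several probe sets, the brightest over the 24 arrays stood for it. This gave 9700 tested genes of the 18193 on the array. Probe sets whose names end in _a_at, _s_at or _x_at can bind related transcripts. They are called shared probe sets below, and the genes they read are named in the paragraphs on gene groups.

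Levels of Fmr1 followed the genotype labels. At each of its 3 probe sets, every Fmr1 KO array lay below every WT array, in polyribosomal and in total RNA (exact permutation test over 924 splits, two-sided p = 0.00216 each, n = 6 against 6). At the brightest of these probe sets the signal left in the Fmr1 KO mice was 5.41 to 6.60 (median 6.40) in polyribosomal RNA and 6.16 to 6.62 (median 6.38) in total RNA. These groups overlapped, and the difference of -0.20 (SE 0.15) did not pass the test (limma adjusted p = 0.257, lower in 3 of 6 lysates). The cortex was checked by 12 genes of cortical identity, whose mean level was 8.72 to 8.90 in polyribosomal and 8.69 to 8.79 in total RNA. Markers of other brain regions had mean levels of 3.60 to 3.88 and 3.49 to 3.72, and 4 of 14 were bright enough to be tested.

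Polyribosomal and total RNA differed over much of the transcriptome, with 65.9% of the probe sets tested called (37.2% higher, 28.7% lower). Of 9700 genes, 3750 (38.7%) were higher and 2739 (28.2%) were lower in polyribosomal RNA at a limma adjusted p under 0.05. Among the 6489 genes called, 5584 moved the same way in 6 of 6 lysates. Large changes were more often falls. Past 1 log2 unit there were 728 falls (7.51% of genes tested) and 292 rises (3.01%). The median difference over all genes was 0.09, and this median and the shares of 38.7% and 28.2% are the background for each gene group below. The median half-width of a 95% interval was 0.209 log2 units over the probe sets tested. The difference profiles of 2 lysates correlated across probe sets at 0.723 to 0.934, a description with no test, since probe sets are not replicates. Lysates 3 and 5 had the smallest contrast, with slopes of 0.836 and 0.866 against the mean of the others.

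Several RNAs at the bottom of the ranking were noncoding, and the lowest was mitochondrial. That was ND5, the only mitochondrially encoded gene matched from the gene lists, read by 1 probe set. ND5, a subunit of respiratory complex I encoded in mitochondrial DNA and translated inside mitochondria, was at 10.49 to 11.27 (median 11.11) in total RNA and at 4.28 to 6.98 (median 5.94) in polyribosomal RNA. The groups were far apart, although polyribosomal levels spread widely. Its difference of -5.20 (SE 0.28, limma adjusted p = 6.05e-08, 36.7-fold) was the largest fall of any gene. Snhg8, a noncoding host gene of a small nucleolar RNA, was at 9.60 to 9.99 (median 9.70) in total and at 4.96 to 5.95 (median 5.46) in polyribosomal RNA. All 6 lysates were lower, with no overlap, by 4.27 log2 units (that is, a difference of -4.27, SE 0.13, limma adjusted p = 1.75e-09, 19.3-fold).

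**Figure D1:**
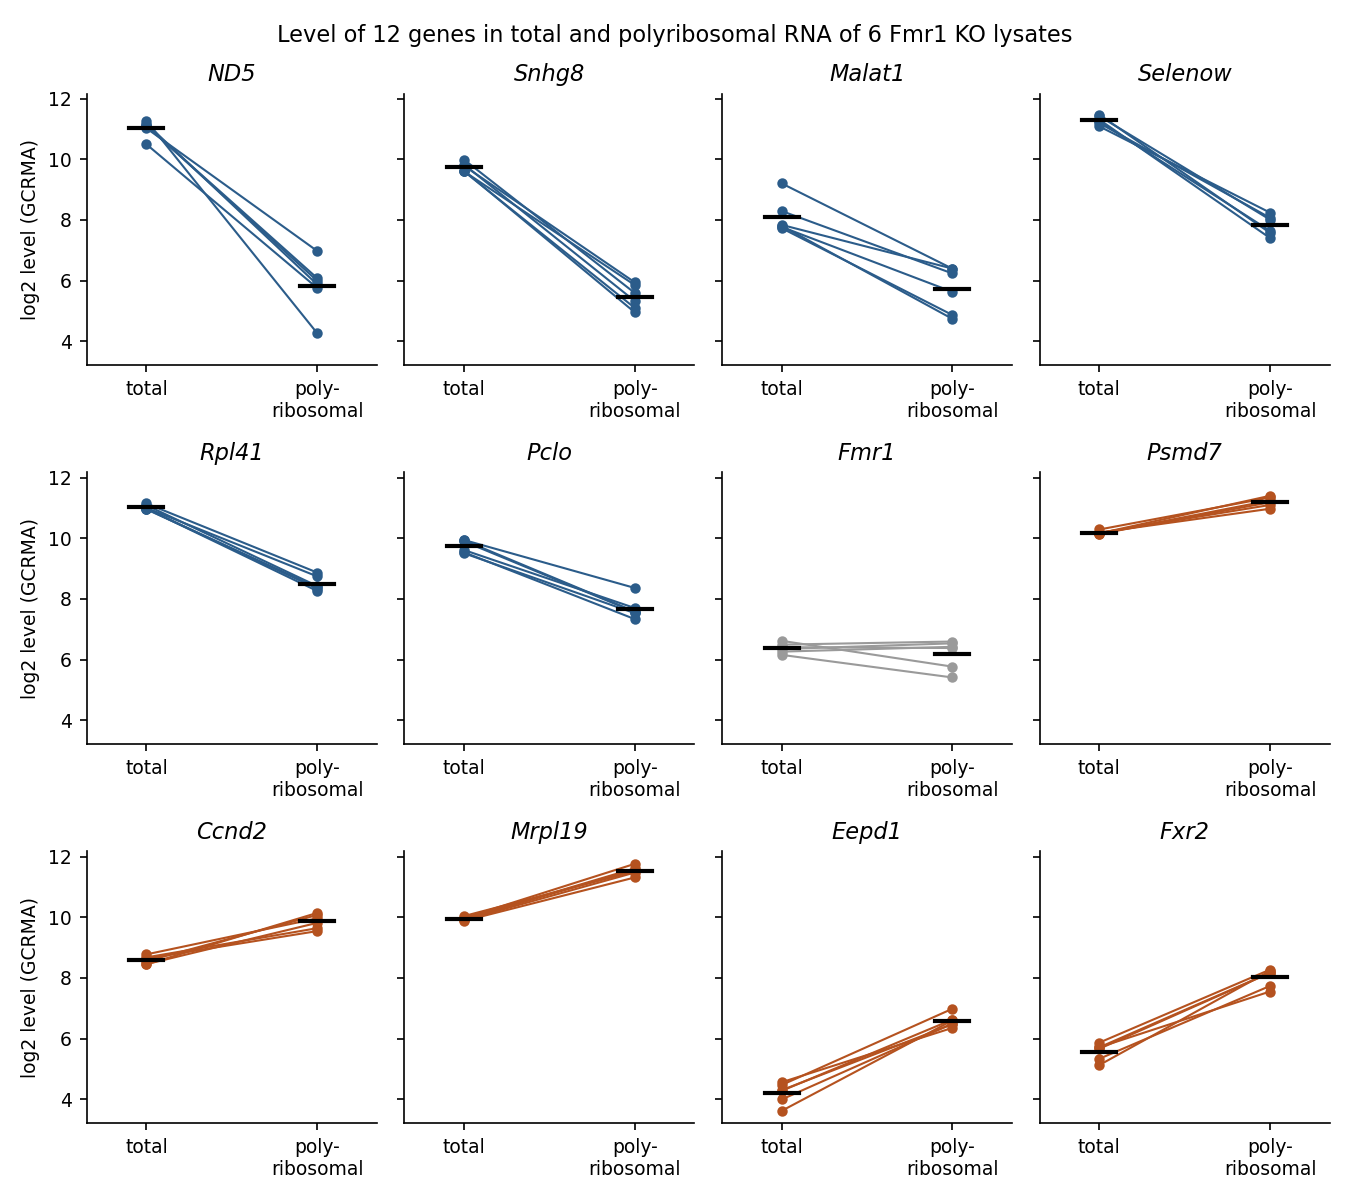
Log2 levels (vertical axis) of 12 genes in total and polyribosomal RNA of the 6 Fmr1 KO lysates. Each line joins the 2 arrays of a lysate, black bars are means, blue marks a gene called lower, orange one called higher and grey one not called; ND5 falls from 10.49 to 11.27 to 4.28 to 6.98, and Fxr2 rises from 5.13 to 5.87 to 7.55 to 8.27.

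Among the 15 largest falls, those of Marchf2 (-4.38), Atp5e (-4.11), Selenow (-3.46), Gas5 (-3.30), Timm8b (-3.07) and Mapk8ip1 (-2.98) came from shared probe sets. Atp5e, the small epsilon subunit of ATP synthase, was at 11.14 to 11.40 (median 11.19) in total and 6.02 to 7.78 (median 7.19) in polyribosomal RNA. Selenow, a very small selenoprotein, was at 11.08 to 11.47 (median 11.27) and 7.40 to 8.24 (median 7.83). Neither gene had an array of one kind within the range of the other. Tmem256 (-3.37, a small membrane protein), Uqcc2 (-3.19, an assembly factor of respiratory complex III), Mt3 (-3.13, a brain metallothionein) and Timm8b (a small chaperone of the mitochondrial intermembrane space) also encode short proteins. Not all of the largest falls did. Mapk8ip1, the JNK scaffold protein JIP1, went from 10.34 to 10.88 (median 10.52) to 7.30 to 8.01 (median 7.50), with a limma adjusted p of 1.59e-09. The polyribosomal means of Marchf2, an E3 ubiquitin ligase, and of Agpat1 (-3.25), an enzyme of phosphatidic acid synthesis, were below the level limit of 4. The size of their falls thus rests on values near background, and they may have passed the level filter through their total arrays alone. The remaining genes of these 15 were Bend6 (-3.04), a transcriptional corepressor, and the noncoding RNAs A530058N18Rik (-3.55) and 2410006H16Rik (-2.98). The 15 were picked among called genes that fell in every lysate, so that agreement was set by the choice. In none of them did the groups overlap.

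The largest rise belonged to Fxr2, a paralogue of Fmr1 that encodes an FMRP-related RNA-binding protein. Its level was 5.13 to 5.87 (median 5.69) in total RNA and 7.55 to 8.27 (median 8.17) in polyribosomal RNA. No polyribosomal array came near a total array, and the difference was 2.45 (SE 0.13, limma adjusted p = 6.12e-08, 5.46-fold). In WT lysates Fxr2 rose by 2.64 (limma adjusted p = 2.95e-07). Its Fmr1 KO minus WT value of -0.19 (SE 0.24) did not pass (limma adjusted p = 0.999). Eepd1, a protein with an endonuclease/exonuclease/phosphatase domain, rose from 3.62 to 4.56 (median 4.29) to 6.36 to 6.98 (median 6.55). This was a rise of 2.38 (SE 0.13, limma adjusted p = 6.78e-08) from near the level limit. The next gene was Rps4l (1.93), which RefSeq lists as a transcribed pseudogene related to the ribosomal protein gene Rps4x, so its probes may also see its relatives. It was followed by Tspyl5 (1.77), a nucleosome assembly protein family member, and Rpa2 (1.75, a shared probe set), a subunit of the single-strand DNA-binding replication protein A.

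The other 10 of the 15 largest rises lay between 1.49 and 1.73. They included metabolic and antioxidant enzymes. Ech1 (1.63) acts in fatty acid oxidation, Ccs (1.60) is the copper chaperone of superoxide dismutase, Cbr3 (1.54) is a carbonyl reductase, Gsta4 (1.51) is a glutathione transferase and Cryl1 (1.49) is a sugar dehydrogenase. Eipr1 (1.73) takes part in endosome recycling, Med16 (1.61) is a Mediator subunit, Mrpl19 (1.60) is a protein of the mitochondrial ribosome and Deptor (1.52) binds and inhibits mTOR. Eola1 was higher by 1.51. The 15 were picked among called genes that were higher in 6 of 6 lysates, so that agreement was set by the choice. None of them had an overlap between the 6 polyribosomal and the 6 total arrays.

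**Figure D2:**
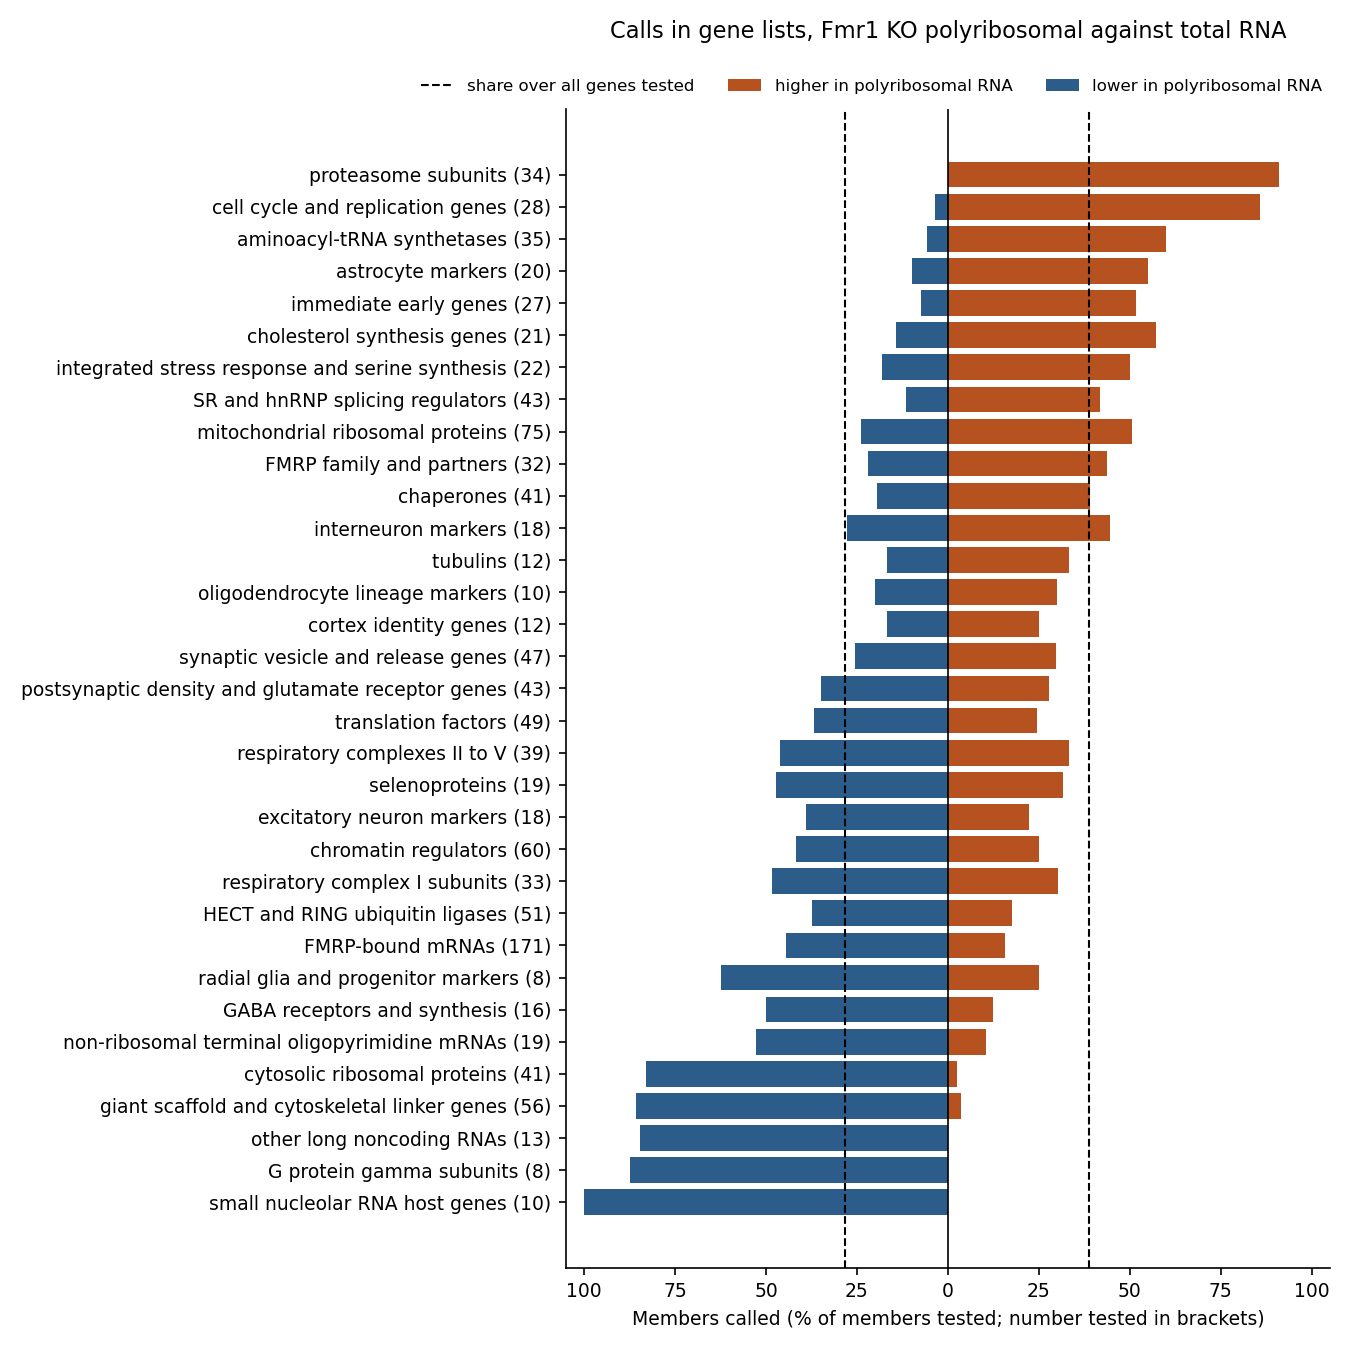
Share of the tested members of each gene list called higher (orange, to the right) or lower (blue, to the left) in Fmr1 KO polyribosomal RNA, in percent, for the lists with at least 8 members tested; the number tested is in brackets. Dashed lines mark the shares over all 9700 genes, 38.7% higher and 28.2% lower; proteasome subunits reach 91.2% higher, and small nucleolar RNA host genes 100% lower.

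Noncoding RNAs were low in polyribosomal RNA. RefSeq lists 116 of the tested genes as long noncoding RNAs, of which 95 (81.9%) were lower and 5 were higher, against 2614 lower (27.4%) and 3734 higher (39.2%) of 9530 protein-coding genes. The median difference was -0.89 for the long noncoding RNAs (-1.01 to -0.68 in single lysates) and 0.10 for the protein-coding genes. The array held 1354 long noncoding RNAs, so most were too dim to be tested. Among host genes of small nucleolar RNAs, 10 of 10 tested members of 16 on the list were lower, with a median of -2.38, and 9 of them were lower by more than 1. After Snhg8 came Gas5, whose total level was 10.06 to 10.42 (median 10.14) and polyribosomal level 5.95 to 7.39 (median 6.98), a gap with no overlap (-3.30, SE 0.13, limma adjusted p = 1.03e-08). Snhg1 (-2.94) and Snhg6 (-2.83) followed, and these 3 were read by shared probe sets. With plain _at probe sets only, 8 host genes could be tested, all lower, with a median of -1.65. These host transcripts carry the nucleolar RNAs in their introns, and their spliced RNA is exported and known for short open reading frames.

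Of the other long noncoding RNAs on a list with 23 on the array, 13 were tested, 11 fell, none rose and 2 were not called, with a median of -1.72. Malat1, an abundant nuclear RNA, was at 7.73 to 9.20 (median 7.82) in the total RNA of these cleared lysates and at 4.74 to 6.40 (median 5.94) in polyribosomal RNA, which left a gap between the groups (-2.39, SE 0.18, limma adjusted p = 8.02e-07, a shared probe set). Rian (-2.12), from the imprinted Dlk1-Dio3 region, Oip5os1 (-2.01), also called Cyrano, and Pantr1 (-1.96), a neighbour of the transcription factor gene Pou3f3, fell as well. The 5 long noncoding RNAs that rose were Kantr (0.70, SE 0.08, limma adjusted p = 1.78e-05), A930004D18Rik (0.58), B930095G15Rik (0.43), A630072M18Rik (0.28) and Brip1os (0.25). These 5 names were looked up after the count was known. All but A930004D18Rik, which rose in 5, were higher in 6 of 6 lysates. The probe set of Kantr was a shared one. The Kantr and B930095G15Rik groups did not overlap, and the other 3 pairs of groups did.

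mRNAs of the cytosolic ribosome were lower as a group. Of 41 tested ribosomal protein genes, 34 fell, 1 rose and 6 were not called, and 17 fell by more than 1. Their median was -0.71, and the medians of single lysates ran from -0.85 to -0.49. The furthest was Rpl41, which encodes the shortest protein of the ribosome. Its level was 10.95 to 11.15 (median 10.99) in total and 8.26 to 8.87 (median 8.41) in polyribosomal RNA. These levels did not overlap in any lysate (-2.52, SE 0.09, limma adjusted p = 5.51e-09). Rps15 (-1.90), Rps26 (-1.84) and Rpl22 (-1.69) came next. All 4 were read by shared probe sets, which for ribosomal proteins can also bind transcripts of their many pseudogenes. With probe sets of the plain _at kind only, 13 members could be tested and 10 of them were lower, 2 higher, with a median of -0.59. At the brightest probe sets only Rpl14 rose, from 5.70 to 5.91 (median 5.84) to 5.96 to 6.57 (median 6.14). This was a difference of 0.35 (SE 0.09, limma adjusted p = 0.00376). Its probe set was dim for this list, whose mean level in total RNA was 11.08 to 11.21.

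mRNAs of ribosomal proteins typically begin with a C followed by an unbroken run of pyrimidines, the terminal oligopyrimidine or TOP tract, through which mTOR signalling controls their translation. The starts annotated by RefSeq (GRCm38.p6) were read for tested genes with a start in the sequence table, and a tract was counted where the first base was C and at least 4 bases of C or T followed, on the gene's own strand. Such a tract stood at the start of 242 of 7905 genes (3.06%) and of 8 of 36 ribosomal protein genes (22.2%). An annotated start can miss the used one by a few bases, and then this count misses the tract. The first 20 bases are shown for the 8 ribosomal protein genes, whose differences are compared below, and for the host genes Snhg8 and Gas5. Capitals mark the tract.
Fau, chr19:6057947-6057966, plus strand: CTTCCTCTTTCTTgactcca
Rpl38, chr11:114668580-114668599, plus strand: CTTTCCCCgttctcttcggt
Rps6, chr4:86857348-86857367, minus strand: CTCTTTTTCgtgacgcctcc
Rpl35, chr2:39005112-39005131, minus strand: CTCTTTCTCTCgaaccaggc
Rplp2, chr7:141447651-141447670, plus strand: CTTTCgccgccggacgccgc
Rps18, chr17:33955646-33955665, minus strand: CTCTCTTCCacaggaggcct
Rps10, chr17:27635225-27635244, minus strand: CTTCCTTTCCagcctccgcc
Rpl14, chr9:120571517-120571536, plus strand: CTTCTCgctgagcgccgcca
Snhg8, chr3:123508317-123508336, minus strand: CTCTTTggctgcgatccgcc
Gas5, chr1:161035166-161035185, plus strand: CTTTCggagctgtgcggcat

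Of the 8 ribosomal protein genes shown, 5 fell by more than 1. The differences were -1.32 for Rpl38, -1.25 for Fau, -1.24 for Rplp2, -1.21 for Rps6 and -1.17 for Rpl35. Of the 8 genes, all but Rps6 and Rpl14 were read by shared probe sets. Rps18 (-0.73) and Rps10 (-0.57) fell less, and Rpl14, with the tract CTTCTC, was the member that rose. The tract's length did not order them, since Rplp2 has one of the shortest tracts and fell about as far as Fau, which has the longest. The median was -1.19 in the 8 genes with a tract and -0.58 in the 28 others with a known start. Those 28 may include genes whose tract the annotated start misses, so this does not compare genes with and without a tract. Over all genes with a known start the medians were 0.05 with a tract and 0.09 without.

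Outside the ribosome, 19 mRNAs known for such tracts were tested, and 10 were lower, 2 higher and 7 not called, with a median of -0.19. Pabpc1, the cytoplasmic poly(A)-binding protein, went from 11.40 to 11.59 (median 11.45) to 9.40 to 9.80 (median 9.60). This fall of 1.87 log2 units (difference -1.87, SE 0.08, limma adjusted p = 1.47e-08, a shared probe set) was seen with no overlap. Pfdn5 (-0.87), a prefoldin subunit, and Tpt1 (-0.59), the translationally controlled tumour protein, fell less far, and the chaperonin subunit Cct8 (0.40) and the nascent chain factor Btf3 (0.30) rose. Tpt1, Cct8 and Btf3 were also read by shared probe sets. Without such probe sets 8 members of the list could be tested, of which 4 were called lower and 0 higher. Gas5 belongs to this list and to the small nucleolar RNA hosts.

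Translation factors divided by gene. Of 49 tested, 12 were higher and 18 lower, with a median of -0.02. Besides Pabpc1, the falls were led by Paip2 (-1.40), which displaces poly(A)-binding protein, Eif4ebp2 (-1.14), the main 4E-binding repressor in brain, and Eif3a (-1.07), the largest subunit of initiation factor 3. The rises were led by Eif2b1 (1.21) and Eif2b2 (1.06), subunits of the exchange factor that recharges eIF2, by Eef2k (0.80), the kinase of elongation factor 2, and by the release factor Etf1 (0.72). Aminoacyl-tRNA synthetases, which load tRNAs with amino acids, were mostly higher, with 21 of 35 up and 2 down and a median of 0.37. The 4 with the largest rises were mitochondrial enzymes. Hars2 rose from 5.82 to 6.05 (median 5.92) to 7.05 to 7.60 (median 7.25), without overlap (1.34, SE 0.09, limma adjusted p = 3.69e-07). Fars2 (1.08), Yars2 (1.07) and Tars2 (0.93) followed, and the cytosolic Eprs (-0.62) and Sars (-0.46) fell. Shared probe sets read Eif2b2, Eef2k, Sars and the 4 mitochondrial enzymes.

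**Figure D3:**
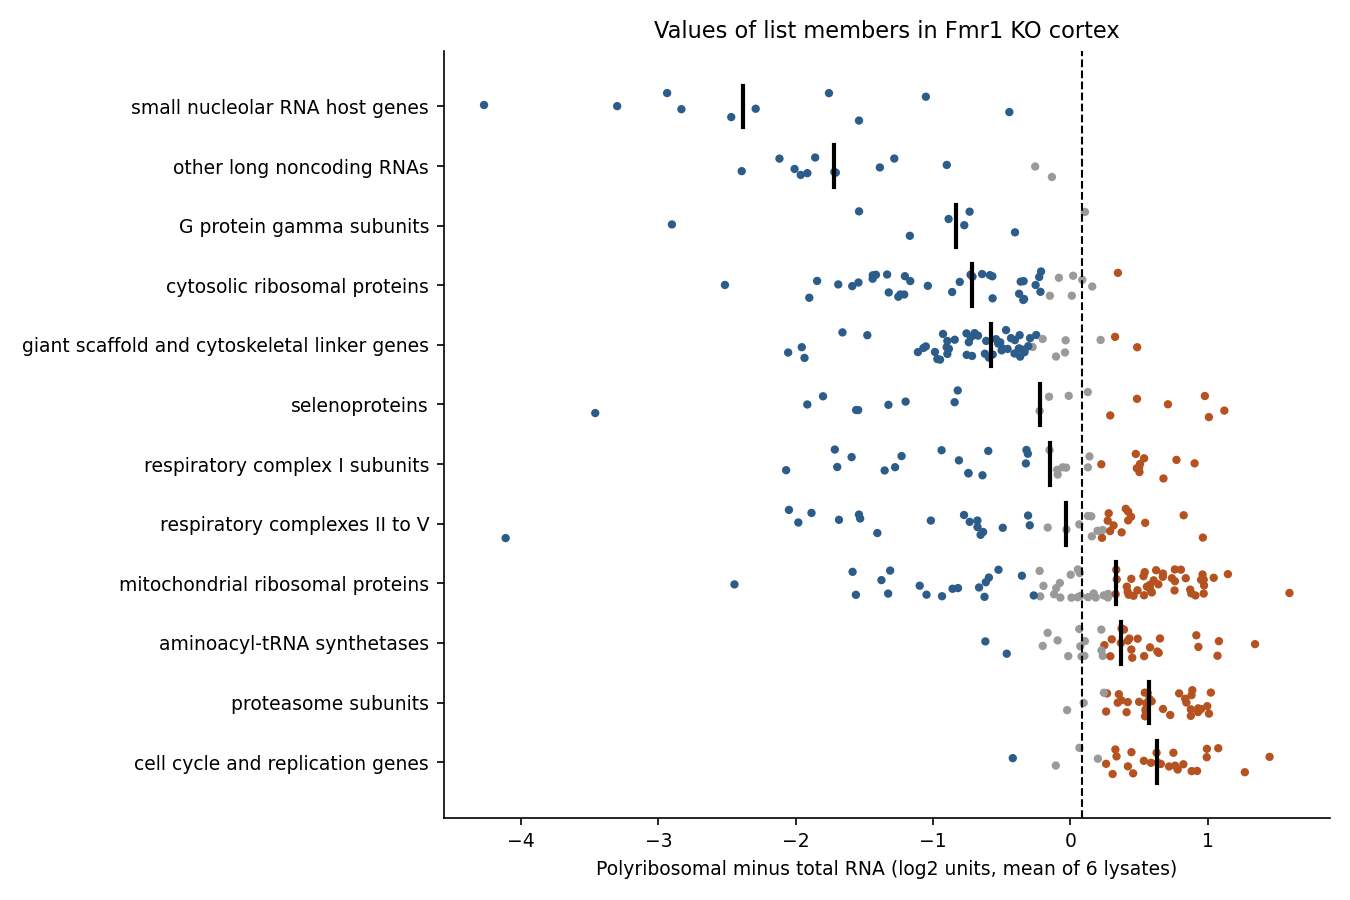
Difference between polyribosomal and total RNA in log2 units (horizontal axis, mean of 6 lysates) for every tested member of 12 gene lists; each point is a gene, orange if called higher, blue if called lower and grey if not called. Black bars are list medians, -2.38 for small nucleolar RNA host genes and 0.57 for proteasome subunits, and the dashed line is the median of all genes, 0.09.

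Nuclear-encoded mitochondrial genes went both ways within the same complex. Proteins of the mitochondrial ribosome had 38 of 75 members higher and 18 lower, with a median of 0.33. Mrpl19 was at 9.88 to 10.04 (median 9.93) in total and 11.31 to 11.76 (median 11.54) in polyribosomal RNA, a 3.02-fold rise, and Mrps31 (1.15), Mrpl45 (1.04) and Mrpl44 (0.97) came next. In the same particle Mrpl52 was at 10.22 to 10.44 (median 10.33) and 6.90 to 8.19 (median 8.07), a 5.45-fold fall (-2.45, SE 0.16, limma adjusted p = 3.14e-07, a shared probe set). Mrpl54 (-1.59), Mrps24 (-1.56) and Mrpl42 (-1.38) fell with it. The sizes of these proteins were not analysed here. Mrps24 and Mrpl44 were read by shared probe sets too.

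In respiratory complex I, 10 of 33 subunits were higher and 16 lower, with a median of -0.15. The accessory subunits Ndufa3 (-2.07), Ndufc1 (-1.72), Ndufa2 (-1.70) and Ndufa6 (-1.59) fell most. Ndufa3 had total levels of 11.42 to 11.55 (median 11.53) and polyribosomal levels of 8.75 to 9.68 (median 9.52). Ndufa10 (0.90) and the core subunits Ndufs3 (0.77) and Ndufs8 (0.68) rose. Complexes II to V gave 13 higher and 18 lower of 39, with a median of -0.03. Here Atp5e, Uqcr10 (-2.05), Uqcr11 (-1.98) and Cox8a (-1.89) fell most. The iron-sulfur proteins Uqcrfs1 (0.96) and Sdhb (0.82) and the core protein Uqcrc1 (0.54) rose. Sdhb was at 10.77 to 11.07 (median 10.91) in total and 11.56 to 12.01 (median 11.73) in polyribosomal RNA, with no overlap. Shared probe sets read Ndufc1, Ndufa2, Ndufs8, Atp5e, Uqcr10, Cox8a and Uqcrc1. Protein length was not analysed here, and the protein sizes named in other paragraphs are background.

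Gamma subunits of heterotrimeric G proteins had 7 of 8 tested members lower and none higher, with a median of -0.83. Gng11 (0.11) was not called. Gng13 was at 5.82 to 6.47 (median 6.04) in total RNA and at 2.81 to 3.53 (median 3.20) in polyribosomal RNA, below the level limit in all 6 arrays. Its fall (-2.90, SE 0.08) thus ends in background. Gng13 passed the level filter only through its total arrays and could hardly be called other than lower, so its call, counted among the 7, adds no support. Brighter members fell too. Gng3, a neuronal subunit, was at 11.99 to 12.13 (median 12.09) and 10.57 to 11.26 (median 10.94), and Gng10 differed by -1.54 and Gng12 by -0.89.

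Selenoproteins contain selenocysteine, which is read at a UGA codon that otherwise stops translation. Of 19 tested, 9 were lower and 6 higher, with a median of -0.22. Selenop (-1.92), the selenium carrier of plasma and brain, Selenoh (-1.80), a nuclear redox protein, and Gpx1 (-1.56), the main cytosolic glutathione peroxidase, fell after Selenow. Selenop was at 7.80 to 7.98 (median 7.93) in total and 5.76 to 6.49 (median 5.90) in polyribosomal RNA. In the other direction stood the 3 thioredoxin reductases Txnrd3 (1.12), Txnrd2 (0.98) and Txnrd1 (0.71), and Selenos (1.01) of the endoplasmic reticulum. Shared probe sets read Selenow, Selenop, Selenos and Txnrd1. The position of the UGA codon in these mRNAs was not analysed here.

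Giant scaffold and cytoskeletal linker proteins had mostly lower mRNAs as well. Of 56 tested, 48 fell, 2 rose and 6 were not called, with a median of -0.58 and lysate medians of -0.83 to -0.41. Pclo (Piccolo), a giant scaffold of the presynaptic active zone, was at 9.50 to 9.94 (median 9.75) in total and 7.34 to 8.36 (median 7.58) in polyribosomal RNA. The ranges were separate (-2.06, SE 0.11, limma adjusted p = 5.26e-08, 4.16-fold). Akap12 (-1.96), a kinase anchor, Dst (-1.94), the linker dystonin, and Ank3 (-1.66), the ankyrin of the axon initial segment, fell next most. Syne2 (0.49), a linker of the nuclear envelope, rose with overlapping groups, and Celsr3 (0.33), a call lost without lysate 1, 2 or 4, rose too. Akap12 and Syne2 were read by shared probe sets.

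FMRP-bound mRNAs, a list written from memory of published FMRP targets in brain, leaned lower in Fmr1 KO polyribosomal RNA. Of 171 tested members, 76 (44.4%) fell and 27 (15.8%) rose, with a median of -0.17. In single lysates the median ran from -0.36 to 0.03. Mapk8ip1, Pclo, Dst and Ank3 had the largest falls, and the last 3 are also on the list of giant genes. The largest rises were those of Med16 (1.61), the potassium channel Kcnh1 (0.96), Mbp (0.81), the main protein of myelin, and the kinesin Kif3c (0.67). Mbp levels varied between lysates, from 9.22 to 10.79 (median 9.72) in total and from 10.05 to 11.57 (median 10.68) in polyribosomal RNA. Its groups overlapped, but each lysate was higher in polyribosomal RNA (0.81, SE 0.10, limma adjusted p = 2.85e-05). Mbp and Mapk8ip1 were read by shared probe sets. In WT lysates the list leaned the same way, with 67 lower and 35 higher and a median of -0.10. Of its members, 63 were lower in both genotypes. Whether the list as a whole differed between genotypes was not tested.

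Among FMRP's relatives and partners, 14 of 32 were higher and 7 lower, with a median of 0.12. Ago2 (0.95), the slicer of the microRNA pathway, G3bp1 (0.74), a stress granule protein, and the mRNA-stabilizing Elavl1 (0.59) rose with Fxr2. Tdrd3, a Tudor protein that binds the FMRP family, was at 8.74 to 9.04 (median 8.88) in total and 6.85 to 7.39 (median 7.02) in polyribosomal RNA, which gave a fall without overlap (-1.81, SE 0.10, limma adjusted p = 8.71e-08). Ybx1 (-1.12), an abundant mRNP packaging protein, and Nufip2 (-0.74), an FMRP-interacting protein, were lower. Fxr1, the third gene of the family, was lower at its brightest probe set (-0.56, SE 0.09, limma adjusted p = 0.000257). A second, shared probe set gave -0.60, another gave 0.31 (limma adjusted p = 0.0308), and the fourth was not called (-0.27).

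Proteasome subunits had the highest share of rises among the lists with at least 8 members tested. Of 34 tested, 31 (91.2%) were higher, none lower and 3 not called, with a median of 0.57 and lysate medians of 0.56 to 0.65. Psmd7, a lid subunit, was at 10.14 to 10.29 (median 10.17) in total and 10.97 to 11.40 (median 11.21) in polyribosomal RNA. The arrays of the 2 kinds stayed apart (1.02, SE 0.08, limma adjusted p = 1.21e-06, 2.03-fold). Psmb2 (1.01), a core particle subunit, Psmd3 (1.00), another lid subunit, and Psmd10 (0.95), an assembly chaperone, rose by nearly as much. The chaperone list stood near the background, with 16 of 41 higher, 8 lower and a median of 0.03. The J proteins Dnaja3 (1.25) and Dnajb1 (0.89) rose, and the small heat shock protein Cryab (-1.38) and the prefoldin subunit Pfdn1 (-0.99) fell. Psmd10, Dnaja3 and Cryab were read by shared probe sets.

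Cell cycle and replication genes were also mostly higher, with 24 of 28 tested members up, 1 down and 3 not called, and a median of 0.63. Ccnd2, the cyclin of dividing cortical progenitors, was at 8.45 to 8.78 (median 8.60) in total and 9.54 to 10.14 (median 9.89) in polyribosomal RNA. This rise of 1.27 (SE 0.11, limma adjusted p = 2.05e-06) separated the groups fully. Cdca8 (1.45), of the chromosomal passenger complex, Gmnn (1.08), which blocks relicensing of replication, and the helicase subunit Mcm5 (0.99) also rose, and Ccne2 (-0.42) fell. Cdca8 and Mcm5 were read by shared probe sets. Of 41 genes on this list, 13 were too dim to be tested.

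**Figure D4:**
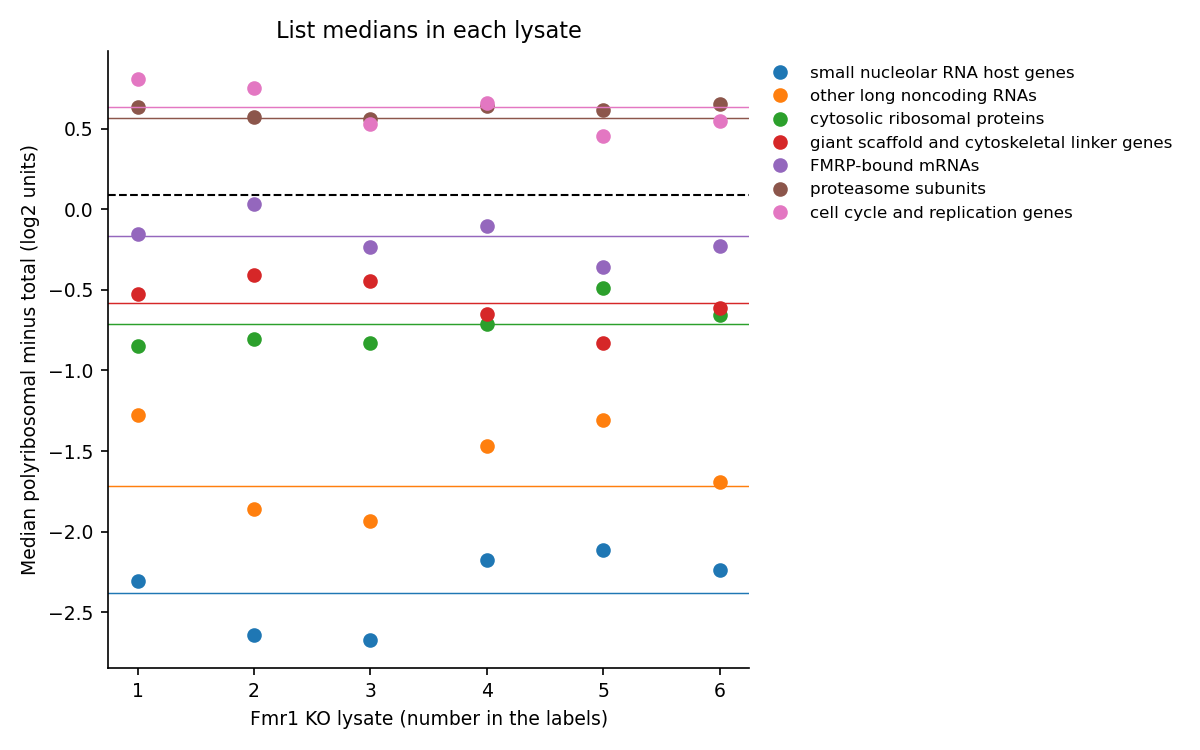
Median difference between polyribosomal and total RNA in log2 units (vertical axis) of 7 gene lists in each of the 6 Fmr1 KO lysates (horizontal axis); thin lines are the medians of the mean differences and the dashed line is that of all genes, 0.09. Proteasome subunits stay between 0.56 and 0.65, cytosolic ribosomal proteins between -0.85 and -0.49, and FMRP-bound mRNAs between -0.36 and 0.03.

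Stress and activity genes leaned higher, with exceptions among the best known members. In the integrated stress response and serine synthesis list, 11 of 22 rose and 4 fell, with a median of 0.31. Ddit4, an mTOR inhibitor induced by stress, was at 8.69 to 9.13 (median 8.96) in total and 10.08 to 10.66 (median 10.32) in polyribosomal RNA. The enzymes Mthfd2 (1.28), Psph (1.15) and Phgdh (0.78) rose with it. The transcription factors Ddit3 (-0.88), Atf5 (-0.40) and Atf4 (-0.36), whose mRNAs hold upstream reading frames that keep ribosomes from the main one in unstressed cells, fell. Without lysate 1 the list had 2 lower calls. Atf4 was at 10.87 to 11.16 (median 10.93) and 10.47 to 10.75 (median 10.60). Its small shift was seen in 6 of 6 lysates (SE 0.08, limma adjusted p = 0.002). Atf4, Atf5 and Phgdh were read by shared probe sets.

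Of 27 tested immediate early genes, 14 were higher and 2 lower, with a median of 0.25; under a stricter filter on low values 6 were higher. Gadd45g (1.42), Junb (1.07), Ier5 (1.04) and Bdnf (0.96), the neurotrophin, led the rises. Jund was at 8.43 to 8.80 (median 8.58) and 7.54 to 8.11 (median 7.75), with no overlap (-0.82, SE 0.09, limma adjusted p = 1.7e-05), and Nr4a2 differed by -0.41. Cholesterol synthesis genes had 12 of 21 higher and 3 lower, with a median of 0.25. Pmvk (1.38), of the mevalonate steps, and the sterol isomerase Ebp (1.19) rose, and the sterol reductase Tm7sf2 (-1.78) and the regulator Insig1 (-0.76) fell. Gadd45g, Bdnf and Pmvk were read by shared probe sets.

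Synaptic gene lists had medians close to that of all genes. Synaptic vesicle and release genes had 14 of 47 higher and 12 lower, with a median of 0.07. Apart from Pclo, the largest changes were rises of Pacsin1 (1.31), an endocytic adaptor, and Rab3b (1.02), a vesicle GTPase, and falls of Syn3 (-0.85) and Ppfia3 (-0.82). Postsynaptic density and glutamate receptor genes had 12 of 43 higher and 15 lower, with a median of -0.01. Cnih2, an auxiliary subunit of AMPA receptors, was at 9.41 to 10.18 (median 9.60) in total and 6.99 to 7.69 (median 7.28) in polyribosomal RNA, and this gap was 5.13-fold (-2.36, SE 0.16, limma adjusted p = 3.91e-07). A further auxiliary subunit of these receptors, Cacng2 (stargazin), differed by -1.52, and the depalmitoylase Abhd17a by -1.79. Baiap2 (0.82) and Pick1 (0.75) rose. Pacsin1 and Syn3 were read by shared probe sets.

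Of 16 GABA genes, 8 were lower and 2 higher, with a median of -0.23. Gabra2, a receptor alpha subunit, was at 9.30 to 10.22 (median 9.99) in total and 7.71 to 8.67 (median 7.96) in polyribosomal RNA, with separate ranges (-1.86, SE 0.13, limma adjusted p = 4.01e-07). Gabra4 (-0.74) and the synthetic enzyme Gad2 (-0.51) fell as well, and the vesicular transporter Slc32a1 (0.58) rose. Leaving out any lysate other than lysate 5 left 1 GABA gene higher in place of 2. Among nuclear regulators, chromatin genes had 25 of 60 lower and 15 higher, led by the remodellers Atrx (-1.38), Chd1 (-1.24) and Chd6 (-1.07). Ubiquitin ligases had 19 of 51 lower and 9 higher, led by Wwp1 (-1.59) and, at a shared probe set, Rnf11 (-1.19). SR and hnRNP splicing regulators had 18 of 43 higher and 5 lower, with Hnrnph3 (0.98) at the top and Srsf9 (-0.61) at the bottom; the 5 lower calls became 2 without lysate 2, 3 or 6. Tubulins, with 4 of 12 higher and 2 lower, stayed at a median of 0.08.

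Cell type markers were read in the same way, since a lysate mixes all cells of the cortex. In such bulk samples fewer cells of a type and less RNA per cell cannot be told apart, but both RNA kinds came from the same lysates. Excitatory neuron markers had 4 of 18 higher and 7 lower (median -0.03), with Crym (0.90) up and Foxp2 (-1.54) and Pcp4 (-1.46) down, and 2 higher calls were left without lysate 1, 4 or 6. Interneuron markers had 8 of 18 higher and 5 lower (median 0.21), with Calb2 (1.34), Sp8 (0.85) and Dlx2 (0.84) up and Reln (-0.79) down. Astrocyte markers had 11 of 20 higher and 2 lower (median 0.24), led by Mlc1 (1.23) and Fgfr3 (1.13). Without shared probe sets 6 of 15 were higher, with a median of 0.11. Oligodendrocyte lineage markers had 3 of 10 higher and 2 lower, with Olig2 (0.93) up and Tspan2 (-1.38) down. Without shared probe sets 1 of 7 was higher, and leaving out any lysate other than lysate 2 left 1 lower call. Progenitor markers had 5 of 8 lower (3 without lysate 2) and 2 higher, with Ptprz1 (-0.91) down and Id4 (0.81) up.

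Markers of cells outside the neural lineage were dim. Of 13 microglial markers 3 were tested, and Aif1 (-1.07) fell while Ctss (0.61) rose. Of 17 endothelial and pericyte markers 6 were tested and 4 rose, led by Rgs5 (0.99). Of 13 markers of meninges, choroid plexus and blood only Igf2 (-1.26) and Ttr (0.51) could be tested, and without lysate 2, 4 or 5 no member was called higher. Aif1 and Ttr were read by shared probe sets. The mean level of this last list was 3.15 to 3.98 in polyribosomal and 3.28 to 4.04 in total RNA. How far these cells took part in any difference above was not tested.

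The same difference was then set beside that of WT lysates, to ask whether it depends on Fmr1. The comparisons share no array. Of 17697 probe sets tested in both genotypes, 11678 were called in Fmr1 KO and 11581 in WT (of all probe sets tested in WT, 36.2% were higher and 29.1% lower), and 10372 were called in the same direction in both, which is 88.8% of the Fmr1 KO calls and 89.6% of the WT calls. The values of the 2 genotypes correlated at 0.978 across probe sets, given as a description. Medians in WT were -2.38 for small nucleolar RNA hosts, -0.72 for cytosolic ribosomal proteins, -0.56 for giant genes, 0.61 for cell cycle genes and 0.56 for proteasome subunits. The WT median was -0.51 for selenoproteins and 0.45 for immediate early genes, further from 0 than in Fmr1 KO, a difference that was not tested. Of the 34 ribosomal protein genes lower in Fmr1 KO all 34 were lower in WT, and of the 31 proteasome genes higher in Fmr1 KO 30 were higher in WT.

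**Figure D5:**
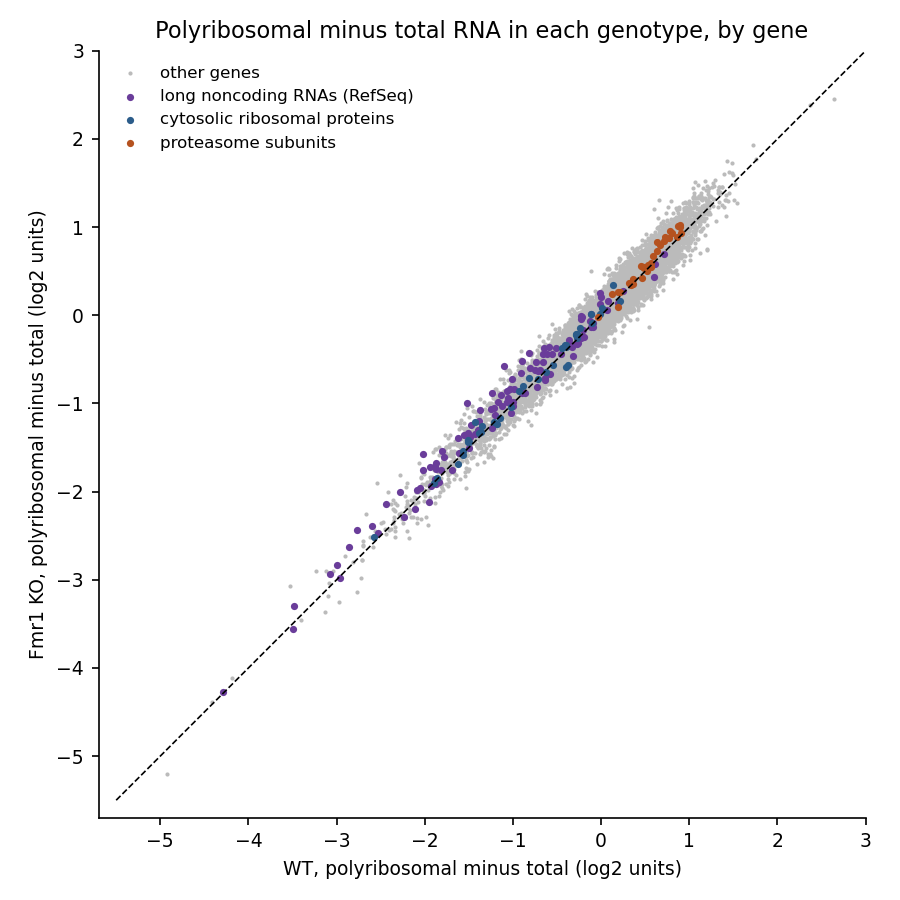
Difference between polyribosomal and total RNA in log2 units for each gene in WT (horizontal axis) and Fmr1 KO (vertical axis), with the line of equality dashed. Long noncoding RNAs (purple), cytosolic ribosomal proteins (blue) and proteasome subunits (orange) lie along the line, in which the correlation across all probe sets tested in both genotypes was 0.978.

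The genotype difference of polyribosomal minus total RNA was tested on the 12 lysates with limma. None of 18544 probe sets (0.0%) passed after Benjamini-Hochberg adjustment, and the smallest adjusted p was 0.999. An unadjusted p under 0.05 was found for 442 of them, a share below the 0.05 that chance alone would give. With lysate 4 of both genotypes left out it was found for 1329, a share above 0.05, so the low count depended on that replicate number. The median half-width of the 95% interval of this difference was 0.298 log2 units, before any adjustment for the number of probe sets. Differences larger than that could also fail the adjusted test, so the absence of calls does not exclude them. With each gene read at its brightest probe set, the smallest unadjusted p belonged to Lsm6, Cenph, Cmbl, Rad1 and Nek8; a dimmer probe set of Fmr1, described below, had a smaller one. Cenph and Nek8 were read by shared probe sets. Lsm6, a ring protein of RNA decay and splicing, was lower by 1.12 in Fmr1 KO polyribosomal RNA (a difference of -1.12) and by 1.55 in WT (-1.55), so that Fmr1 KO minus WT was 0.43 (SE 0.11, limma adjusted p = 0.999). The rises of Cenph, a centromere protein, were 1.20 in Fmr1 KO and 0.61 in WT, those of the hydrolase Cmbl 1.30 and 0.66, and those of the checkpoint gene Rad1 1.23 and 0.76. Nek8 (-0.38 for Fmr1 KO minus WT), a ciliary kinase, was too dim to be tested in Fmr1 KO alone. None of these genes passed.

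A single probe set was called in opposite directions in the genotypes, and it belonged to Fmr1 itself. At this second, shared probe set the Fmr1 KO value was -0.49 (SE 0.11, limma adjusted p = 0.0022), from a total mean of 4.46 to a polyribosomal mean of 3.97, and the WT value was 0.44. The Fmr1 KO levels were thus at the level limit. The genotype difference there was -0.93 (SE 0.17), with an unadjusted limma p of 6.4e-05, and did not pass after adjustment (limma adjusted p = 0.999). At the brightest Fmr1 probe set the values were -0.20 in Fmr1 KO and 0.24 in WT, and their difference of -0.43 (SE 0.20) did not pass either. The third probe set, a shared one too dim to be tested in Fmr1 KO, went the other way there. Its means were 3.85 in polyribosomal and 3.62 in total RNA, higher in 6 of 6 lysates. Its WT value was 0.41, and Fmr1 KO minus WT was -0.17 (SE 0.15), which did not pass.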

How the data were processed

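The series matrix holds log2 values of 45037 probe sets on 24 arrays, which the authors deposited and, per the submitters' processing notes, made with GCRMA (background correction, normalization and summary of probe sets). The log2 scale was judged from their range, and whether all arrays were normalized together is not given in the sources used here. Labelling started from a fixed mass of RNA per array, per the labels' protocols, so absolute amounts were not measured. No scan dates or batches were used. The number of arrays limits the precision.

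Probe sets that reached a log2 level of 4 in 6 or more of the 12 arrays were tested with the R package limma (3.58.1, under R 4.3.3) (two-sided, lysate as block, Benjamini-Hochberg over the table, threshold 0.05), after a check on simulated data. Polyribosomal and total RNA of 1 replicate number came from the same lysate, and residuals of equal numbers correlated at 0.159 to 0.483, each best with its own number. Lysates were separate pools of mice. Of 34945 probe sets with 1 symbol (932 had several, 9160 none), 34741 matched RefSeq. Of 1443 entries in 38 gene lists 1294 matched. The members and lists were chosen with earlier results of these data known. Genes named are the 15 largest rises and falls among called genes with the same direction in 6 of 6 lysates. Also named are up to 4 per direction in each list, the FMRP family and the 5 smallest genotype p. Alternatives were other filters, scalings, fits and left-out lysates. Protein length, planned as a further measure, was not analysed here. Figures used matplotlib 3.10.9.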

Additional observations from a re-analysis of the deposited data

Results flagged for a closer look

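Lysate differences were checked for a lysate that stood apart from the other 5, with Dixon's ratio, for 281 genes and lists, and 12 (4.27%) passed, while chance alone passes about 1 in 20. Lysate 1 held the lowest value of 4 genes: Mrpl52 (-3.54, others -2.32 to -2.04), Ndufa3 (-2.67, others -2.04 to -1.80), Nrgn (-1.68, others -0.71 to -0.20), a calmodulin-binding protein of dendrites, and Hopx (-1.41, others -0.76 to -0.40), a homeodomain protein of glial progenitors. In lysate 3, Gas5 fell furthest (-4.11, others -3.27 to -3.03) and Atrx least (-0.88, others -1.67 to -1.37). Lysate 5 stood apart for Eprs (-1.47, others -0.55 to -0.28), Chd6 (-1.79, others -1.09 to -0.83), the GABA transaminase gene Abat (-0.21, others 0.27 to 0.51) and Selenos (1.46, others 0.80 to 1.05). Among the lists, the median of the 3 microglial markers was -0.43 in lysate 2 (others 0.13 to 0.43), and that of the 6 endothelial and pericyte markers was 0.56 in lysate 4 (others 0.21 to 0.34). In 10 of these 12 all lysates kept the sign of the mean; Abat and the microglial markers did not.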

How the results depend on the processing

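No value of a named gene reversed and every count of probe sets or genes called stayed within 1.5 times its main value under the alternatives run: no filter on low values, a stricter filter, quantile normalization, centring, an intensity trend, 1 fit of all 24 arrays, no replicate block, leaving out each lysate, and a log2 of at least 4 in all 12 arrays (chosen after seeing the data). Without the replicate block 6330 probe sets were called higher and 4847 lower, against 6633 and 5133. Leaving out 1 lysate gave 5856 to 6660 higher and 4412 to 4902 lower. Of the gene groups that led the report, only the ribosomal proteins moved in count, from 34 lower of 41 tested to 10 of 13 with unique probe sets. Such probe sets left fewer members to test, so smaller counts are in part lost members. Lower calls became 8 of 23 tested from 16 of 33 in complex I and 11 of 25 from 18 of 39 in complexes II to V. In other TOP mRNAs they became 4 of 8 from 10 of 19. Higher calls became 8 of 25 from 13 of 39 in complexes II to V and 6 of 35 from 12 of 49 in translation factors. They became 10 of 30 from 16 of 41 in chaperones, 6 of 15 from 11 of 20 in astrocyte and 1 of 7 from 3 of 10 in oligodendrocyte markers. Calls of 17 named genes were lost under at least 1 setting, among them Celsr3, Abat, Ttr, Ppp1r15a and Lhx2. The genotype difference was not run with all 24 arrays in 1 fit or the filter on all 12 arrays, and had 0 calls in the other settings. Leaving out a lysate here removed that number from both genotypes. Without lysate 4 the probe sets at an unadjusted p under 0.05 rose to 1329 from 442, from below to above a share of 0.05. The planned comparison by protein length was not run. The polyribosomal mean was below a log2 of 4 in 511 tested probe sets, and the size of a fall there is uncertain. Some of these, such as that of Gng13, passed the filter only through their total arrays.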

Other observations

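Probe sets of 1 gene did not always move together. Of 2460 genes with at least 2 called probe sets, 195 (7.93%) had calls in both directions, and 30 of them spanned over 1.5 log2 units. The genes below were picked after their values were seen. In Sfpq, a splicing factor of paraspeckles, 1 probe set was at -1.70 and another at 0.47, with limma adjusted p of 5.52e-07 and 0.001. Tra2a, a splicing regulator, spanned -1.89 to 0.45, Eif5, an initiation factor, -1.56 to 0.60, Brcc3, a deubiquitinase, -2.08 to 0.47, and Snapin, a SNARE-binding protein, -1.42 to 0.65. The brightest probe set, which stands for the gene above, was called higher in these 5 genes. Which transcripts each probe set reads was not analysed here.

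The length of a gene in the genome and its difference were not related in 1 direction. Bins of genomic span were set after the values were seen. Of 392 protein-coding genes spanning under 3 kb, 40.8% were lower and 22.2% lower by more than 1, with a median of -0.03. Of 3047 genes of 10 to 30 kb, 46.1% were higher and 6.1% lower by more than 1, with a median of 0.19. Of 387 genes spanning 300 kb or more, 39.3% were lower, 8.53% by more than 1, with a median of -0.13. The medians in WT were -0.08, 0.18 and -0.15. Calls of lower values made up 18% of the 1940 genes dimmest in total RNA and 32.7% of the 1940 brightest. The total level is itself a term of the difference. The dimmest genes, with total levels of 3.46 to 5.26, were near the level limit and had little room to fall. The filter on level also keeps some genes that are dim in total RNA because their polyribosomal arrays are brighter. It keeps others, such as Gng13, only because their total arrays are bright, and these could hardly be called higher. Whether brightness itself goes with lower values was therefore not tested.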
